A study of Mus musculus with 7 samples.

Results

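A group of 10 genes known from endocrine progenitors and from β-cell dedifferentiation was followed through RNA-sequencing of sorted β-cells: the transcription factor genes Neurog3, Sox9, Sox4, Hes1 and Fev, the peptide hormone genes Gast and Cck, the MYC family genes Myc and Mycl, and the cell-surface gene Cd81. They were taken by symbol, and all 10 were found among the 35013 genes of the deposited table. Poly-A RNA libraries, 1 per mouse, came from 2 KO_db/db, 2 db/db and 3 db/+ mice. All 3 groups carried RIP-Cre Herr, a Cre recombinase driven by the rat insulin promoter, and a tdTomato reporter allele (tdT fl/+). KO_db/db mice were Aldh1a3 fl/fl and Lepr db/db, so that Aldh1a3 was removed in cells with Cre on a background without a functional leptin receptor. db/db mice were Aldh1a3 fl/+ and Lepr db/db, which makes them obese and diabetic, and db/+ mice were Aldh1a3 fl/+ and Lepr db/+, lean carriers. Both control groups thus had Cre and 1 floxed Aldh1a3 allele, and the knockout extends only to cells in which the insulin promoter drove Cre. KO_db/db and db/db are together called the diabetic groups below, by their Lepr db/db genotype. They did not have equal glycemia: the study reports fasting glucose in KO_db/db mice like that of db/+, and better glucose tolerance than in db/db. The part of glycemia in the differences was not tested. The study's methods give an age of 16 to 20 weeks and both sexes for its experiments in general. Mice were fasted for 16 h before islet isolation. The sample titles do not give the sex of each mouse. The gate used to sort the cells for sequencing is not given in the sources used here.

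In the embryonic pancreas, SOX9 and the Notch effector HES1 are found in multipotent progenitors, and HES1 represses Neurog3. A fall in Notch activity lets NEUROG3, a basic helix-loop-helix (bHLH) factor, rise for a short time and commit a cell to an endocrine fate, with SOX4 acting beside it and FEV following it. Dedifferentiation is the name given to the loss of mature β-cell genes together with the return of genes of this kind, and ALDH1A3, which makes retinoic acid, is one of its markers.

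Total counts ran from 27496645 to 35852785 per library. The detection floor was set at 3 counts, which came to 0.0717 to 0.123 CPM, the count scaled by TMM to a common library size. Ins1 and Ins2 together made up 21.8% to 24.4% of all counts in both diabetic groups and 32.2% to 36.1% in db/+. Insulin transcripts were thus abundant in all 7 libraries, which does not measure purity. Of 10 β-cell markers, Ins1 and Ins2 among them, edgeR called 9 lower and 0 higher in db/db compared to db/+ (median log2 fold change -1.64). In KO_db/db compared to db/+ it called 7 lower and 0 higher (median -0.81). Over all genes tested, 18.0% and 17.9% were called lower. The targeted gene Aldh1a3 was higher in db/db than in db/+ by 8.92 on the log2 scale (edgeR adjusted p = 0.000408) and lower in KO_db/db than in db/db, with a log2 fold change of -4.50 (edgeR adjusted p = 0.0445). In KO_db/db it still exceeded db/+ by 4.44 (edgeR adjusted p = 0.00327). The KO_db/db libraries stood apart by pancreatic acinar genes: a list of 42 took 17.6% of the counts in mouse 1 and 1.99% in mouse 2, against 0.00703% to 0.0572% in the other libraries. The db/+ library of mouse 3 stood apart by 2911 counts of Y-linked genes, where the others had 20 to 79. By this measure it alone looked male, so sex was not balanced between db/+ and the diabetic groups. The part of sex in the differences was not tested. Taken alone, a gene measured in 2 mice against 2 has a smallest two-sided exact permutation p of 0.333, and in 2 against 3 one of 0.1, so the tests rest on a fit across all genes. In bulk RNA, fewer cells with a transcript and less transcript per cell cannot be told apart.

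The stretches of genome just before 5 of these genes are shown because several members encode factors that bind short, known motifs. Those printed rose (Neurog3, Sox4, Gast and Cck) or fell (Fev) in db/db. The table of RefSeq promoters used here, on GRCm38.p6, held 7 of the 10 members, and the 250 bases before each start were searched on both strands. Hes1, Sox9 and Myc were not analysed here. Capitals mark the motifs found: the E-box CANNTG, bound by bHLH proteins such as NEUROG3; CACGTG, the form of E-box preferred by MYC and itself one of the CANNTG matches; the N-box CACNAG, bound by HES1; the cAMP response half-site TGACG; and the nuclear receptor half-site AGGTCA, used by retinoic acid receptors.
Neurog3: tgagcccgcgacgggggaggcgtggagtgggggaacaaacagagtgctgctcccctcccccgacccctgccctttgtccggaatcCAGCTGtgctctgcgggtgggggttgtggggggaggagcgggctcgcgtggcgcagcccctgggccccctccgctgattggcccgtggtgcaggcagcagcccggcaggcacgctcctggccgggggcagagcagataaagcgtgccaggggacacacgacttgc
Sox4: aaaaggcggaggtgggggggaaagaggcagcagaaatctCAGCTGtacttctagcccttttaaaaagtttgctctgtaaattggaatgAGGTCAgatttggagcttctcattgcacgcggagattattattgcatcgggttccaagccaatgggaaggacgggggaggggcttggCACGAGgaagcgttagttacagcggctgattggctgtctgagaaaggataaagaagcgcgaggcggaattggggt
Fev: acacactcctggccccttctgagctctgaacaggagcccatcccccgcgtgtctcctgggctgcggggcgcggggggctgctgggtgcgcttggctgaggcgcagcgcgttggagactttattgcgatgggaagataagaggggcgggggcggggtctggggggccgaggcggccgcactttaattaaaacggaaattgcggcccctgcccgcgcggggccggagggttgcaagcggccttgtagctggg
Gast: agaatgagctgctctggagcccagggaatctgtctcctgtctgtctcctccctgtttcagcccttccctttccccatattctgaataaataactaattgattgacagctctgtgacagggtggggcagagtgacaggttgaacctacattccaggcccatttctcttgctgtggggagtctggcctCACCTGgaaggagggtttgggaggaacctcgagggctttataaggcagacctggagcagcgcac
Cck: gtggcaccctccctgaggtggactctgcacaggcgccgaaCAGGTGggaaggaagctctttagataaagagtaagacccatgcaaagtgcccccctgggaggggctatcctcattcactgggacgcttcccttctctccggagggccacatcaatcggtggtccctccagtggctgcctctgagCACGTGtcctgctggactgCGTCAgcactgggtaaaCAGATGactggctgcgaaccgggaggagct
These are, in order, chr10:62132840-62133089 (plus strand), chr13:28953700-28953949 (minus strand), chr1:74885409-74885658 (minus strand), chr11:100334157-100334406 (plus strand) and chr9:121495695-121495944 (minus strand), each 5′ to 3′ along its gene. Neurog3 had 1 E-box, 165 bases before the start. Sox4 had 1 E-box at 211 bases, an N-box at 75 and the nuclear receptor half-site at 162. Cck was the richest, with E-boxes at 210, 66 and 30 bases, the one at 66 being CACGTG, and the cAMP half-site at 47, which reads CGTCA on the printed strand. Gast had 1 E-box at 64 bases, and Fev had none of the 5 motifs. Mycl and Cd81, the latter called in no comparison, were searched too but are not printed. Cd81 had 1 E-box at 145 bases, and Mycl had 1 E-box at 106 and an N-box at 228. Such letters are common: among 32851 promoters of the same length, CANNTG stood in 66.2%, CACGTG in 6.02%, CACNAG in 36.7%, TGACG in 17.8% and AGGTCA in 14.0%. A match is a description of the sequence and not a binding site.

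The first comparison asked which of these genes differ between β-cells of diabetic and lean mice. In db/db compared to db/+, 6 of the 9 members that passed the filter on low counts were higher (Neurog3, Sox4, Gast, Cck, Myc and Mycl), 1 was lower (Fev), and Hes1 and Cd81 did not pass the threshold. Of all 13406 genes tested in this comparison 37.8% were called, 19.9% higher and 18.0% lower. The second comparison, KO_db/db against db/+, asked which differ from lean cells when Aldh1a3 is removed. There, 3 of 9 tested members were higher (Neurog3, Sox4 and Mycl) and 0 lower by edgeR, where 38.4% of 13228 genes were called, 20.5% higher and 17.9% lower. The third, KO_db/db against db/db, asked what differs when Aldh1a3 is removed on the Lepr db/db background. Of the 10 members, 0 passed edgeR's threshold, where 0.319% of 13486 genes were called. At an unadjusted p under 0.05 there were 4 (Sox9, Gast, Cck and Fev), where 20.9% of all genes were. DESeq2 called 3 (Cck, Fev and Gast), but it also called far more genes in all, 1396 against 43 by edgeR. In the first 2 comparisons the same members had an unadjusted p under 0.05 as were called, where 48.2% and 48.8% of all genes did. The comparisons share libraries, the db/+ mice in the first pair and the diabetic groups in turn, so their values stand side by side and are not independent.

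By the levels alone, the db/db libraries lay wholly above the db/+ libraries for 6 of the 10 members and wholly below for Fev. Non-overlap was common with so few mice: 63.3% of all tested genes had it in this comparison, 32.6% higher and 30.7% lower. The KO_db/db libraries lay wholly above db/+ for 6 members and wholly below for 0, where 64.1% of genes did not overlap, 31.7% higher and 32.5% lower. They lay above db/db for Sox9 and Fev and below for Gast and Cck, where 57.5% did not overlap, 28.4% higher and 29.1% lower.

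**Figure D1:**
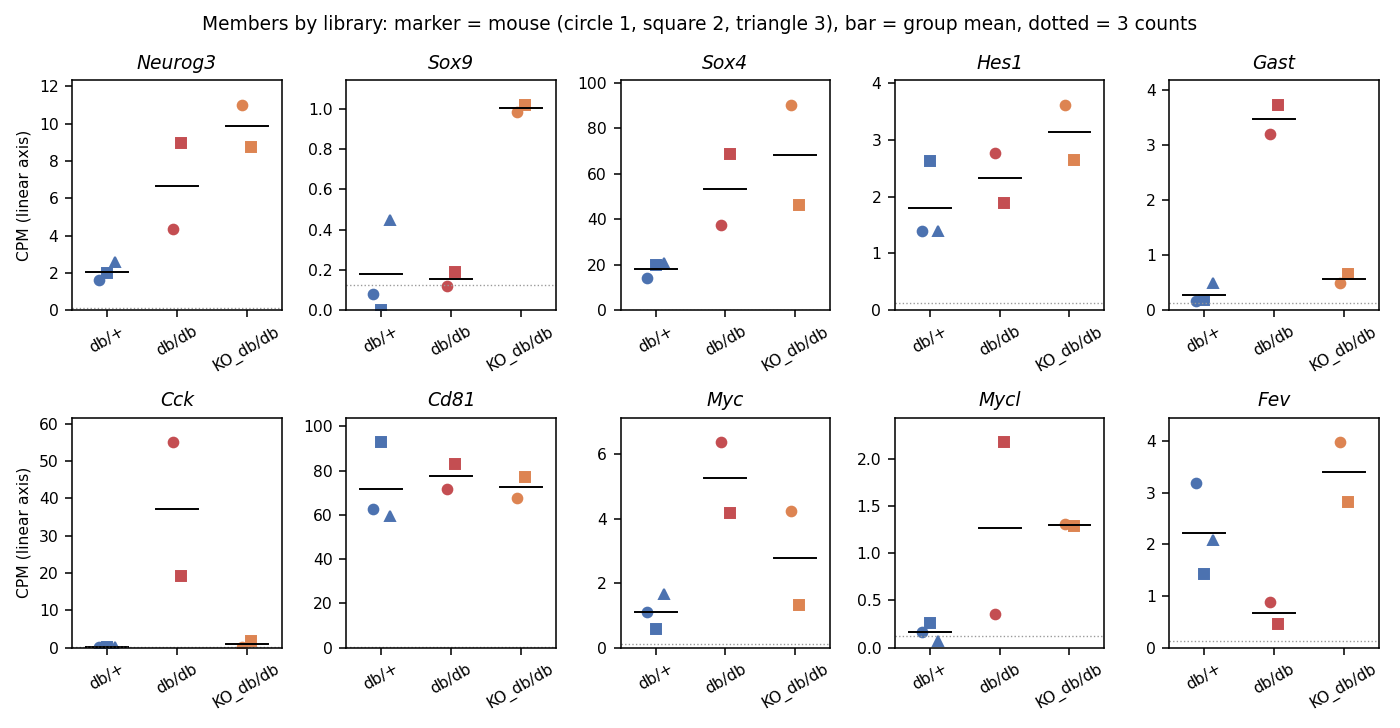
Level of each of the 10 genes in CPM (linear axis from 0, one panel per gene) in the 7 libraries, grouped as db/+, db/db and KO_db/db. Each point is a library, its shape is the mouse number, the bar is the group mean and the dotted line is 3 counts in the shallowest library; Neurog3, Sox4, Gast, Cck and Myc are higher in both db/db libraries than in all 3 db/+ libraries, Sox9 is high only in the KO_db/db libraries (0.985 and 1.02 CPM), and Cd81 overlaps throughout.

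Neurog3 (ENSMUSG00000044312.4, chr10:62133090-62134763 of GRCm38, plus strand) encodes the factor that starts endocrine commitment. Its level was 1.64, 2.01 and 2.56 CPM in the db/+ libraries, from 40, 55 and 74 counts. It was 4.38 and 8.96 CPM in the db/db libraries, from 149 and 375 counts, and 11.0 and 8.76 CPM in the KO_db/db libraries, from 268 and 361 counts. Every diabetic library was above every lean one, and the db/db mice spread over a wider range than the KO_db/db mice. The log2 fold change was 1.68 in db/db against db/+ (standard error 0.37, edgeR adjusted p = 0.0129), 3.19-fold, and 2.25 in KO_db/db against db/+ (standard error 0.25, edgeR adjusted p = 0.00141), 4.77-fold. KO_db/db exceeded db/db by 0.56 with a 95% interval from -0.39 to 1.51 (edgeR adjusted p = 0.437), so loss of Aldh1a3 was not accompanied by a fall of Neurog3 that these libraries could show. The rise in db/db leaned on mouse 2: without that library it was 1.06 (edgeR adjusted p = 0.0793), and adjusted p ran from 0.000437 to 0.0793 over 11 alternatives. In KO_db/db against db/+ all 11 alternatives were past the threshold, with log2 fold changes from 2.08 to 2.44. The gene overlaps Fam241b on the opposite strand, and 14.6% of its 31-base words also occur in Fam241b transcripts. Fam241b itself lay between 14.6 and 17.5 CPM in all 7 libraries.

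Sox4 (ENSMUSG00000076431.4, chr13:28948919-28953713, minus strand) encodes a high mobility group factor that acts with NEUROG3 in endocrine differentiation. It was at 14.1, 19.7 and 20.7 CPM in db/+, 37.6 and 68.6 CPM in db/db, and 90.2 and 46.0 CPM in KO_db/db. The groups ran the same way as for Neurog3, with every diabetic library above every lean one and the diabetic groups overlapping. Sox4 rose by 1.54 on the log2 scale in db/db against db/+ (standard error 0.28, edgeR adjusted p = 0.00641) and by 1.91 in KO_db/db against db/+ (standard error 0.29, edgeR adjusted p = 0.00408). Both calls were kept in all 11 alternatives of each comparison. KO_db/db and db/db differed by 0.35, with a 95% interval from -0.69 to 1.40 (edgeR adjusted p = 0.647). The locus also carries Gm26735, a lincRNA on the opposite strand that is not a row of the table, and 54.7% of the 31-base words of Sox4 occur in it or, for a few, in Sox11 and Klf4. Whether the counting used strand is not given in the sources used here, so reads of Sox4 and of this antisense RNA cannot be told apart.

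Fev (ENSMUSG00000055197.4, chr1:74881509-74885419, minus strand) encodes an ETS factor that follows NEUROG3 in islet precursors and is also the defining factor of serotonin neurons. In db/db it moved against Neurog3 and Sox4. Its level was 3.19, 1.42 and 2.08 CPM in db/+, 0.881 and 0.454 CPM in db/db, from 30 and 19 counts, and 3.98 and 2.82 CPM in KO_db/db, from 97 and 116 counts. Both db/db libraries were below all others, and the KO_db/db libraries overlapped the lean ones. Fev fell by 1.76 on the log2 scale in db/db against db/+ (standard error 0.53, edgeR adjusted p = 0.0398). This call was lost without db/db mouse 2 (-1.35, edgeR adjusted p = 0.152), without db/+ mouse 1 (-1.41, edgeR adjusted p = 0.125) or without db/+ mouse 3 (-1.80, edgeR adjusted p = 0.0704), and adjusted p over 11 alternatives ran from 0.00900 to 0.152. In KO_db/db against db/+ the difference was 0.61 (95% interval -0.33 to 1.55, edgeR adjusted p = 0.258). Against db/db, Fev was 5.08-fold in KO_db/db, a log2 fold change of 2.35 (95% interval 1.09 to 3.60, edgeR adjusted p = 0.114). That difference was past the threshold with DESeq2 (adjusted p = 0.00293), with no filter on low counts (edgeR adjusted p = 0.00639) and in one edgeR fit of all 7 libraries (adjusted p = 0.0436), and adjusted p over its 10 alternatives ran from 0.00293 to 0.384. Markers of δ-cells were lowest in the same group: the summed level of 8 of them was 575 to 2534 CPM in db/+, 301 and 443 CPM in db/db, and 749 and 842 CPM in KO_db/db, led by Sst, and 2 of the 5 that could be tested were lower in db/db. Their part in the level of Fev was not tested.

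Sox9 (ENSMUSG00000000567.5, chr11:112782224-112787760, plus strand), the factor of pancreatic progenitors that stays on in adult ducts, was close to the floor outside the knockout. It had 2, 0 and 13 counts in db/+ (0.0819, 0 and 0.450 CPM) and 4 and 8 counts in db/db (0.117 and 0.191 CPM). In KO_db/db it had 24 and 42 counts, or 0.985 and 1.02 CPM, above the highest of the other 5 libraries and nearly equal in both mice. Between db/db and db/+ it was under the filter and was not tested, and the ratio of pooled counts was 0.851 (95% counting interval 0.364 to 1.95, which covers counting error only). Against db/+ the log2 fold change in KO_db/db was 2.45 (standard error 1.06, 95% interval -0.088 to 4.98, edgeR adjusted p = 0.112). It was 4.55 without db/+ mouse 3, which alone of the lean mice had more than 2 counts (edgeR adjusted p = 0.0190), within a range of 0.0190 to 0.270 over 11 alternatives. Against db/db it was 2.66 (95% interval 1.06 to 4.25, edgeR adjusted p = 0.129), and 0 of 10 alternatives were past the threshold, with adjusted p from 0.0658 to 0.463.

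The rise of Sox9 counts coincided with genes of exocrine tissue. The summed level of the acinar list was 81.0 to 378 CPM in db/+, 477 and 337 CPM in db/db, and 198501 and 17342 CPM in KO_db/db. The sum of 15 ductal markers, Sox9 among them, was 461 to 479 CPM in db/+, 612 and 778 CPM in db/db, and 695 and 736 CPM in KO_db/db, and most of it came from keratins and Epcam that all libraries held. Of these markers, 9 of 12 tested were higher and 0 lower in KO_db/db compared to db/+ (median 1.37, where 38.4% of all genes were called), 4 of 9 higher and 0 lower in db/db compared to db/+, and 0 of 12 were called by edgeR between the diabetic groups, with 4 at an unadjusted p under 0.05. Of the ductal markers that were low elsewhere, Krt19 stood at 9.36 and 0.534 CPM and Muc1 at 23.2 and 1.70 CPM in KO_db/db mice 1 and 2, where Cftr had 28 and 4 counts and Cldn10 was at 3.53 and 0.534 CPM. These were higher in the mouse with more acinar counts. Slc4a4, at 12.7 and 9.37 CPM, was close in both mice, as Sox9 was, and Spp1, at 12.7 and 41.8 CPM, was higher in the other. The part of exocrine RNA in the level of Sox9 was not tested.

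Hes1 (ENSMUSG00000022528.8, chr16:30064384-30067796, plus strand), the Notch effector that represses Neurog3, was at 1.39, 2.63 and 1.39 CPM in db/+, 2.76 and 1.89 CPM in db/db, and 3.61 and 2.65 CPM in KO_db/db. The db/db libraries overlapped the lean ones, and the KO_db/db libraries were just above all of them. Its log2 fold change was 0.35 in db/db against db/+ (95% interval -0.63 to 1.34, edgeR adjusted p = 0.537), 0.80 in KO_db/db against db/+ (95% interval -0.14 to 1.73, edgeR adjusted p = 0.151) and 0.42 in KO_db/db against db/db (95% interval -0.52 to 1.37, edgeR adjusted p = 0.543). None of these was called under any of the alternatives run. The intervals leave room for a rise of more than 1 on the log2 scale in either diabetic group against lean mice.

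**Figure D2:**
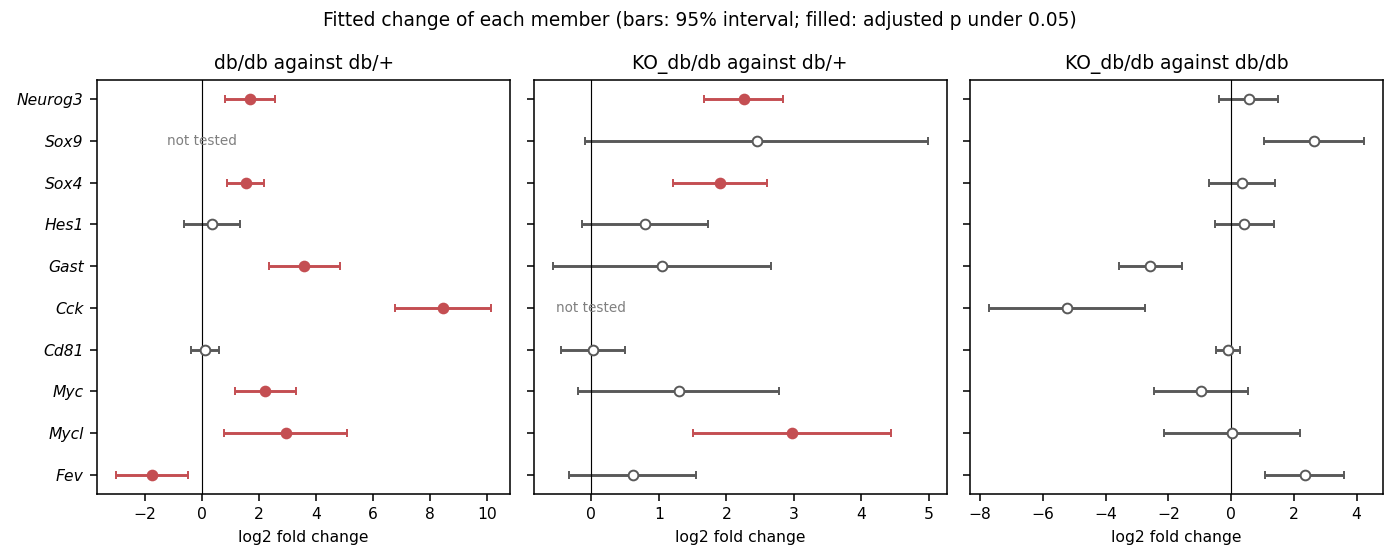
Log2 fold change (horizontal axes, scaled separately) of each of the 10 genes in the 3 comparisons, from edgeR's quasi-likelihood fit. Points are estimates, bars 95% intervals and filled points adjusted p under 0.05, with genes under the count filter written as not tested; filled points number 7, 3 and 0 from the left panel to the right, and in the right panel the intervals of Sox9, Gast, Cck and Fev are the ones that leave out 0.

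The members with the largest rises in db/db were those of the hormones gastrin and cholecystokinin (CCK), which share the end of their peptide chain. Gastrin is made by G-cells of the stomach and, during development, by islet cells, and CCK by cells of the intestine and by neurons. The shared end is shown as the coding sequence of GRCm38, 13 codons of each gene 5′ to 3′, with capitals on the 5 codons that encode the end of both hormones.
Gast: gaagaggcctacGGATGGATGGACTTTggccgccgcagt
Cck: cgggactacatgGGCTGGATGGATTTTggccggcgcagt
Of the 15 capital bases, 13 are identical. No word of 31 bases in the transcripts of either gene occurs in any other gene, so reads of one could not have been assigned to the other along a match of that length.

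Gast (ENSMUSG00000017165.1, chr11:100334407-100336996, plus strand) had 4, 5 and 14 counts in db/+ (0.164, 0.182 and 0.485 CPM), 109 and 156 counts in db/db (3.20 and 3.73 CPM), and 12 and 27 counts in KO_db/db (0.493 and 0.656 CPM). The db/db mice agreed closely and stood alone, while the knockout mice were just above the highest lean mouse. The log2 fold change in db/db against db/+ was 3.60 (standard error 0.52, edgeR adjusted p = 0.00308), 12.1-fold, and it passed the threshold in all 11 alternatives, with 4.28 without db/+ mouse 3. In KO_db/db against db/+ it was 1.04 (95% interval -0.57 to 2.66, edgeR adjusted p = 0.263). Against db/db, KO_db/db was at 0.168 of the level, a log2 fold change of -2.58 (95% interval -3.59 to -1.57, edgeR adjusted p = 0.0844). This passed the threshold with DESeq2 (adjusted p = 0.000258), with no filter on low counts (edgeR adjusted p = 0.00207) and in one edgeR fit of all 7 libraries (adjusted p = 0.0436), and adjusted p over 10 alternatives ran from 0.000258 to 0.205.

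Cck (ENSMUSG00000032532.7, chr9:121489824-121495694, minus strand) had 6, 1 and 1 counts in db/+, 1873 and 798 counts in db/db, and 3 and 68 counts in KO_db/db. On the CPM scale these were 0.246, 0.0365 and 0.0346, then 55.0 and 19.1, then 0.123 and 1.65. Transcripts that were at or near the floor in lean mice were thus plain in both db/db mice, and the knockout mice differed widely between themselves. In db/db against db/+ the log2 fold change was 8.47 (standard error 0.71, edgeR adjusted p = 0.000696), called in all 11 alternatives (7.50 without db/db mouse 1 and 9.87 without db/+ mouse 1), and the ratio of pooled counts was 355 (95% counting interval 180 to 823). Against db/+, KO_db/db was under the count filter, and the pooled ratio was 10.9 (95% counting interval 5.26 to 26.3), nearly all of it from mouse 2. Without the filter, and without KO_db/db mouse 1, Cck was among the called members of that comparison. Against db/db the log2 fold change in KO_db/db was -5.24 (standard error 0.98, 95% interval -7.72 to -2.76, edgeR adjusted p = 0.0955). It was -8.19 without KO_db/db mouse 2 (edgeR adjusted p = 0.0206), and it was also past the threshold with DESeq2 (adjusted p = 0.00992), with no filter on low counts (edgeR adjusted p = 1.00e-06) and in one edgeR fit of all 7 libraries (adjusted p = 0.0236). Over its 10 alternatives adjusted p ran from 1.00e-06 to 0.232 and the log2 fold change from -8.19 to -4.32.

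**Figure D3:**
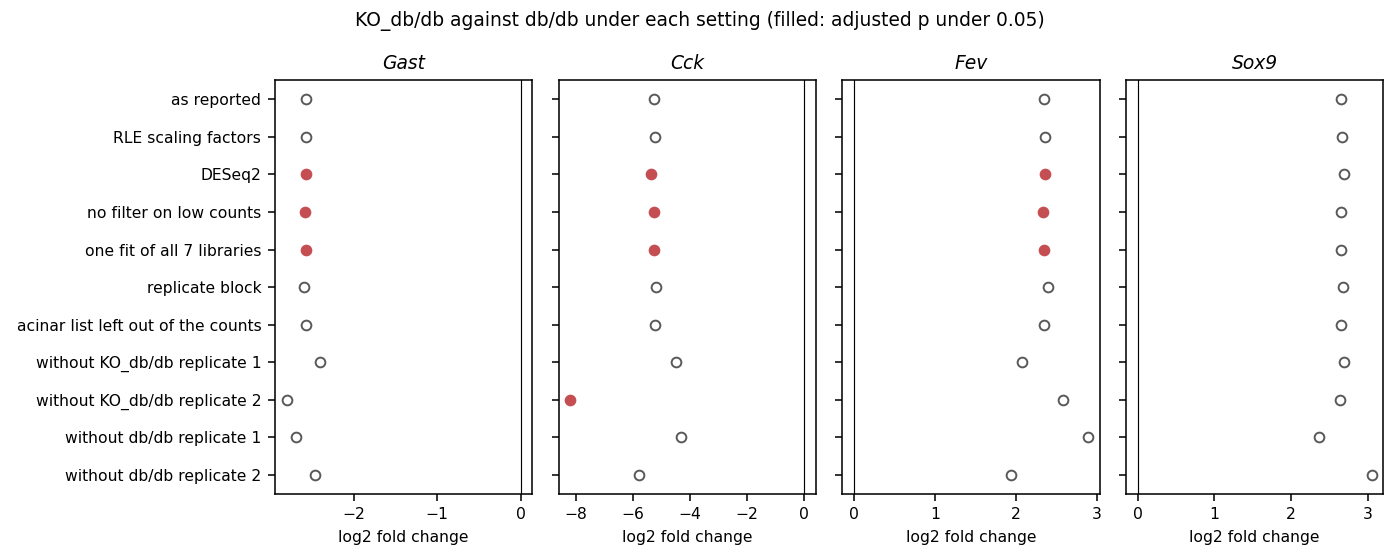
Log2 fold change of Gast, Cck, Fev and Sox9 in KO_db/db against db/db (horizontal axes, scaled separately) as reported and under 10 other settings (rows). Filled points have an adjusted p under 0.05; the sign is the same in every row, and Gast, Cck and Fev are filled with DESeq2, with no filter on low counts and in one fit of all 7 libraries, Cck also without KO_db/db replicate 2, and Sox9 in no row.

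Receptors and processing enzymes of these hormones were counted beside them. Of 13 such genes, Gast and Cck included, 5 of 11 tested were higher and 1 lower in db/db compared to db/+, and 2 of 11 higher and 1 lower in KO_db/db compared to db/+. In db/db the other rises included Scg5, the chaperone of prohormone convertase 2 (0.73, edgeR adjusted p = 0.00930), and Tpst2, which adds sulphate to tyrosines (0.67, edgeR adjusted p = 0.00530). The fall was of Pcsk1, prohormone convertase 1, in both diabetic groups: -0.78 in db/db (edgeR adjusted p = 0.0157) and -0.81 in KO_db/db (edgeR adjusted p = 0.0181). Cckar, a CCK receptor of acinar cells, had 460 and 112 counts in KO_db/db, 13 and 4 in db/db, and 1, 0 and 0 in db/+. Its pooled ratio in KO_db/db against db/+ was 704 (95% counting interval 126 to 27870), and it moved between the knockout mice in the order of the acinar list. Cckbr, the receptor that binds both hormones, had 0 counts in all 7 libraries.

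Myc (ENSMUSG00000022346.15, chr15:61985391-61990374, plus strand), a driver of growth and proliferation, was at 1.11, 0.584 and 1.66 CPM in db/+, 6.37 and 4.18 CPM in db/db, and 4.23 and 1.31 CPM in KO_db/db. The db/db libraries lay above all lean ones. The knockout libraries split, one with the db/db mice and one within the lean range. In db/db against db/+ it rose by 2.22 on the log2 scale (standard error 0.45, edgeR adjusted p = 0.00994), and 1 of 11 alternatives lost the call. That was the fit without db/db mouse 1 (1.89, edgeR adjusted p = 0.0509), at the top of a range that began at 6.60e-05. The difference was 1.30 in KO_db/db against db/+ (95% interval -0.19 to 2.78, edgeR adjusted p = 0.145) and -0.95 in KO_db/db against db/db (95% interval -2.45 to 0.55, edgeR adjusted p = 0.404). Without KO_db/db mouse 1 these became 0.23 and -2.01, and without mouse 2 they became 1.91 and -0.32, with no call.

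Mycl (ENSMUSG00000028654.13, chr4:122995652-123002485, plus strand), a paralog of Myc, had 4, 7 and 2 counts in db/+ (0.164, 0.255 and 0.0693 CPM), 12 and 91 counts in db/db (0.352 and 2.17 CPM), and 32 and 53 counts in KO_db/db (1.31 and 1.29 CPM). All 4 diabetic libraries were above the lean ones, and db/db mouse 1 only slightly so. The log2 fold change was 2.98 in KO_db/db against db/+ (standard error 0.62, edgeR adjusted p = 0.0110) and 2.93 in db/db against db/+ (standard error 0.91, edgeR adjusted p = 0.0431). The call in db/db did not last: without db/db mouse 2 the value was 1.08 (edgeR adjusted p = 0.521), and it also missed the threshold without db/+ mouse 1 (2.94, edgeR adjusted p = 0.106), mouse 2 (3.42, edgeR adjusted p = 0.0740) or mouse 3 (2.56, edgeR adjusted p = 0.103), with 0.0139 to 0.521 over 11 alternatives. Without db/db mouse 1 it was 3.70. In KO_db/db the call was lost without mouse 1 (2.96, edgeR adjusted p = 0.0571) or mouse 2 (2.98, edgeR adjusted p = 0.0597), with 0.00150 to 0.0597 over 11 alternatives. KO_db/db and db/db differed by 0.027 (95% interval -2.13 to 2.19, edgeR adjusted p = 0.989), an interval too wide to show likeness.

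Around these genes, 6 of 13 tested genes of the MYC and MAX network, Myc and Mycl included, were higher and 1 lower in db/db compared to db/+, with a median of 0.40 where the median over all genes was 0.0064. Mycn, another MYC paralog, was also higher in db/db: it had 4, 1 and 0 counts in db/+ and 30 and 169 counts in db/db. Its pooled ratio was 42.3 (95% counting interval 17.8 to 132; edgeR adjusted p = 0.0110). Bmyc, a further relative that is on no list, was at 16.9 to 18.2 CPM in db/+, 27.1 and 34.3 CPM in db/db, and 31.5 and 28.3 CPM in KO_db/db. Mga, a MAX partner, rose by 0.92 (edgeR adjusted p = 0.00144), and Mlx fell by 0.66 (edgeR adjusted p = 0.00880). In KO_db/db against db/+, 5 of 12 were higher and 1 lower, again Mlx (-0.48, edgeR adjusted p = 0.0117). The largest called rise there outside the members, among genes of at least 1 CPM on average, was that of Mlxipl, the glucose-responsive factor ChREBP (1.39, edgeR adjusted p = 0.00117), followed by Mnt, a repressor that competes with MYC for MAX (1.01, edgeR adjusted p = 0.00321). Of 28 genes known as MYC targets, 27 were tested in db/db against db/+, with 4 higher, 5 lower and a median of -0.022, and 6 higher and 6 lower of 28 in KO_db/db against db/+. Nolc1, a nucleolar protein gene, rose in both (1.00, edgeR adjusted p = 0.00369, and 1.06, edgeR adjusted p = 0.00237). Ncl, encoding nucleolin, rose in db/db (0.95, edgeR adjusted p = 0.00123), and its level in KO_db/db was 245 and 286 CPM, against 123 to 137 CPM in db/+. Ccnd2, the main D-type cyclin of β-cells, fell in db/db by 1.10 (edgeR adjusted p = 0.00164).

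Cd81 (ENSMUSG00000037706.17, chr7:143052739-143067934, plus strand), a tetraspanin on the surface of many cells that has been used to mark immature or stressed β-cells, was not called in any comparison. It was at 62.7, 92.8 and 59.4 CPM in db/+, 71.9 and 83.0 CPM in db/db, and 67.7 and 77.2 CPM in KO_db/db, and the groups overlapped in all comparisons. The log2 fold change was 0.10 in db/db against db/+ (95% interval -0.38 to 0.59, edgeR adjusted p = 0.725), 0.024 in KO_db/db against db/+ (95% interval -0.45 to 0.50, edgeR adjusted p = 0.938) and -0.099 in KO_db/db against db/db (95% interval -0.47 to 0.27, edgeR adjusted p = 0.723). These were the narrowest intervals among the members, and the sign turned when single libraries were left out. Among 31 tetraspanins and CD81 partners, 5 of 26 tested were higher and 6 lower in db/db compared to db/+, and 8 of 27 higher and 5 lower in KO_db/db compared to db/+. Cd9, the relative of Cd81 that sits with it in the membrane, rose in both: from 0.554 to 1.02 CPM in db/+ to 4.20 and 13.0 CPM in db/db and 6.61 and 12.8 CPM in KO_db/db (3.46, edgeR adjusted p = 0.00348, and 3.65, edgeR adjusted p = 0.00126). Tspan8 fell in both, by 2.21 (edgeR adjusted p = 0.00107) and 0.78 (edgeR adjusted p = 0.0232). Tspan33 was the gene of this list that differed between the diabetic groups, at 60.6 and 63.2 CPM in db/db and 25.6 and 25.8 CPM in KO_db/db, near the 28.1 to 30.8 CPM of db/+ (-1.27, edgeR adjusted p = 0.0459).

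The transcription factors were set among the other genes of their developmental steps. Of 20 endocrine progenitor factors, with Neurog3, Sox4 and Fev among them, 17 were tested in each comparison with db/+: 4 were higher and 4 lower in db/db, and 8 higher and 1 lower in KO_db/db. In db/db, Runx1t1, a corepressor gene, rose by 1.31 (edgeR adjusted p = 0.00107) and Rfx6 by 0.53 (edgeR adjusted p = 0.0189). Insm1 and Neurod1, both direct targets of NEUROG3 that mature β-cells keep on, went the other way and fell by 0.69 (edgeR adjusted p = 0.0115) and 0.59 (edgeR adjusted p = 0.00938). In KO_db/db, Glis3 rose by 1.48 (edgeR adjusted p = 0.00680) and Tox3 by 1.19 (edgeR adjusted p = 0.00298), and Isl1 fell by 0.56 (edgeR adjusted p = 0.0127). Pax4, another target of NEUROG3, and Neurod2 had 0 counts in all 7 libraries.

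Of 17 pancreatic progenitor factors, Sox9 and Hes1 included, 2 of 10 tested were higher and 2 lower in db/db compared to db/+, close to the share over all genes, and 2 of 13 were higher and 1 lower in KO_db/db. Gata6 fell by 1.21 in db/db (edgeR adjusted p = 0.0229), and Pdx1, which mature β-cells need, fell in both (-0.83, edgeR adjusted p = 0.00426, and -0.57, edgeR adjusted p = 0.0100). In the SOX family of 17 genes, 2 of 5 tested were higher in db/db, Sox4 and Sox5 (1.88, edgeR adjusted p = 0.0413). In KO_db/db, 3 of 6 were higher: Sox4, Sox13 (1.05, edgeR adjusted p = 0.00405) and Sox12 (0.98, edgeR adjusted p = 0.00210), the last a close relative of Sox4. Sox11, the third of that subgroup, had 0 to 3 counts per library.

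Hes1 is read out of the Notch pathway, and 11 of 31 tested Notch genes were higher and 4 lower in db/db compared to db/+, with a median of 0.19, against 13 higher and 3 lower in the knockout, with a median of 0.63. Hey1, another Notch effector, was called where Hes1 was not, and had 7, 0 and 0 counts in db/+, 177 and 105 in db/db, and 9 and 14 in KO_db/db, a pooled ratio of 42.8 in db/db against db/+ (95% counting interval 20.5 to 108; edgeR adjusted p = 0.00996). Maml2, a coactivator, rose in both diabetic groups (2.61, edgeR adjusted p = 0.00265, and 2.23, edgeR adjusted p = 0.00223), and Maml3 by 1.84 in KO_db/db (edgeR adjusted p = 0.000693). Psenen, a subunit of γ-secretase, fell in both, by 0.65 (edgeR adjusted p = 0.00409) and 0.45 (edgeR adjusted p = 0.00962). Tle3, a corepressor used by HES proteins, was at 55.5 to 64.9 CPM in db/+, 26.7 and 25.8 CPM in db/db, and 103 and 95.3 CPM in KO_db/db. It fell by 1.21 in db/db against db/+ (edgeR adjusted p = 0.000911) and was higher by 1.91 in KO_db/db against db/db (edgeR adjusted p = 0.0221), the only Notch gene called there. Its relatives Tle1 and Tle4 ran the other way in db/db, and Tle2 overlapped between db/db and db/+. Tle1 was at 13.4 to 18.7 CPM in db/+, 74.8 and 102 CPM in db/db, and 42.0 and 58.6 CPM in KO_db/db. Tle4 was at 2.23 to 3.68 CPM in db/+, 13.3 and 19.4 CPM in db/db, and 5.99 and 4.98 CPM in KO_db/db. Of the 7 bHLH partners and Id inhibitors, which pair with NEUROG3 or block it, 0 of 5 tested passed edgeR's threshold in db/db against db/+, with 2 at an unadjusted p under 0.05, and 2 did in KO_db/db: Tcf4 (1.01, edgeR adjusted p = 0.00206) and Tcf3 (0.51, edgeR adjusted p = 0.0153).

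The neighbours of FEV in serotonin cells were counted too. Of 14 such genes, Fev included, 4 of 8 tested were lower and 1 higher in db/db against db/+, and 3 of 9 lower and 1 higher in KO_db/db. Maob, which breaks down amines, was at 200 to 208 CPM in db/+, 38.1 and 32.7 CPM in db/db, and 96.2 and 109 CPM in KO_db/db. It fell by 2.53 in db/db (edgeR adjusted p = 0.000175) and 0.97 in KO_db/db (edgeR adjusted p = 0.00130), and the diabetic groups differed by 1.54 (edgeR adjusted p = 0.0453). Slc18a1, a vesicle transporter of monoamines, fell in both (-1.10, edgeR adjusted p = 0.00722, and -0.83, edgeR adjusted p = 0.00872). Lmx1b, a homeobox factor of serotonin neurons, rose from 4.33 to 4.45 CPM in db/+ to 19.95 and 15.7 CPM in KO_db/db (2.03, edgeR adjusted p = 0.000710). Tph1, the enzyme that makes serotonin outside the brain, had 0 to 3 counts per library. Tph2, the form of serotonin neurons, was at 1.28 to 3.44 CPM in db/+, 3.23 and 2.46 CPM in db/db, and 0.616 and 1.21 CPM in KO_db/db, and was called in none of the comparisons (edgeR adjusted p = 0.713 and 0.0910 against db/+ and 0.168 between the diabetic groups).

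Of 8 other dedifferentiation markers, 6 of 7 tested were higher in db/db against db/+ and 6 of 8 in KO_db/db, none lower in either. They were chosen as such and are no independent evidence of direction. Slc5a10, a sugar transporter, was at 288 and 42.0 CPM in db/db and at 0.0243 to 0.727 CPM in every other library (8.16 in db/db against db/+, edgeR adjusted p = 0.00134), so that, like Gast and Cck, it was higher in both db/db libraries than in the other 5. Nes, encoding nestin, had 119 and 25 counts in KO_db/db and 0 to 1 elsewhere, a pooled ratio of 88.7 against db/+ (95% counting interval 24.1 to 739; edgeR adjusted p = 0.00709), and was higher in the knockout mouse with more acinar counts. Of 10 pluripotency factors, 3 of 4 tested rose in db/db, led by Klf4, at 0.208 to 0.328 CPM in db/+, 8.84 and 4.71 CPM in db/db, and 1.07 and 2.28 CPM in KO_db/db (4.66, edgeR adjusted p = 0.000766), with Sall4 next (1.03, edgeR adjusted p = 0.0259). In KO_db/db, 2 of 4 rose, among them Prom1 (0.61, edgeR adjusted p = 0.0172). Prom1 encodes a cell-surface marker and no pluripotency factor in the strict sense, and it was already at 63.4 to 80.3 CPM in db/+. It was also above this range in db/db, at 109 and 115 CPM. Pou5f1 and Sox2 had 0 counts in all 7 libraries and Nanog had 1 in all.

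On the Lepr db/db background, KO_db/db against db/db, edgeR called 1 gene in each of 4 of the 12 lists: Tle3, Tspan33 and Maob, given above, and Aldh1a3 itself. In the other 8 lists it called 0. At an unadjusted p under 0.05, which 20.9% of all genes reached, these held 7 of 17 tested endocrine progenitor factors, 5 of 13 pancreatic progenitor factors, 2 of 4 pluripotency factors, 1 of 4 bHLH partners, 1 of 6 SOX genes, 4 of 13 genes of the MYC and MAX network, 3 of 28 MYC targets and 5 of 12 genes around gastrin and CCK. The 4 lists with a call held 6 of 8 serotonergic genes, 5 of 8 other dedifferentiation markers, 8 of 31 Notch genes and 6 of 27 tetraspanins and partners, and no list was counted with DESeq2. Members aside, the gene with the smallest adjusted p in each of the 8 lists was Cad, a pyrimidine synthesis enzyme and MYC target (1.04, edgeR adjusted p = 0.0961), Cckar (5.52, edgeR adjusted p = 0.116), Tox3 (1.01, edgeR adjusted p = 0.123), Mlxipl (0.73, edgeR adjusted p = 0.123), Klf4 (-1.99, edgeR adjusted p = 0.138), Gata6 (1.28, edgeR adjusted p = 0.166), Tcf4 (0.49, edgeR adjusted p = 0.211) or Sox13 (0.51, edgeR adjusted p = 0.333).

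**Figure D4:**
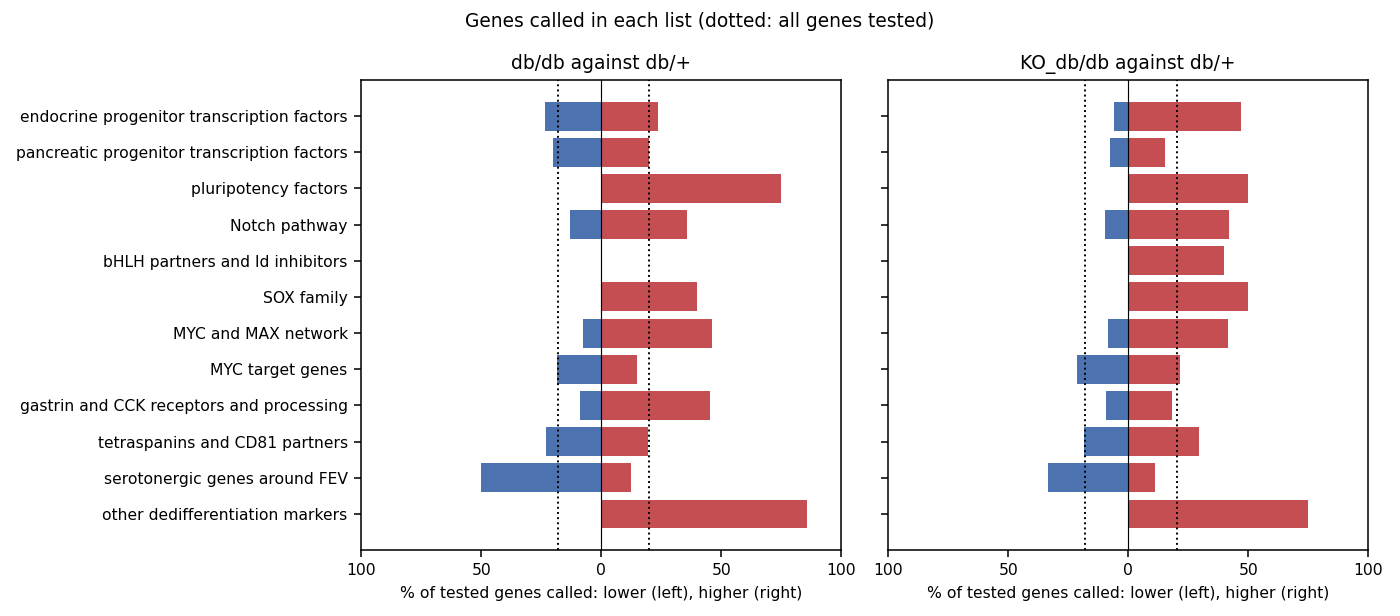
Share of the tested genes of 12 lists called higher (to the right, red) or lower (to the left, blue) in percent, with db/db against db/+ on the left and KO_db/db against db/+ on the right. The dotted lines are the shares over all genes tested, 19.9% higher and 18.0% lower in the first and 20.5% and 17.9% in the second. The other dedifferentiation markers (7 tested) and pluripotency factors (4 tested) stand far to the right in db/db, while MYC targets lie near the dotted lines in both.

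Over the 7 libraries, each member was compared with 9357 genes of at least 5 CPM on average by the root mean square difference of centred log2 CPM, a measure of likeness in pattern with no test. Neurog3 was most like Arid1b (0.13) and Zfp628 (0.14), and Sox4 most like Auts2 and Iqsec1 (0.17 each). For Cd81 the nearest were Lpcat1 (0.074) and Plscr3 (0.099), and for Hes1 Irs1 (0.21) and Sh3pxd2a (0.22). Gast lay nearest to Gna14 (0.33) and Basp1 (0.36), and Fev to Lrrfip1 (0.41) and Npr1 (0.42). The nearest to Myc were Rasd2 and Fosl2 (0.43 each). Cck had no close match, the nearest being Slc1a1 (0.69) and Clmp (1.14), both at over 20 CPM in the db/db libraries and under 2 CPM in all others. Mycl and Sox9, with means under 1 CPM, were not searched.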

How the data were processed

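Poly-A libraries of sorted mouse β-cells (TruSeq, 100-bp paired ends), 1 per mouse, were grouped by the labels' genotype. The authors deposited estimated counts per gene, made with kallisto on GRCm38. These were rounded to whole numbers here, without normalization, before the fits. The submitters' processing notes name kallisto 0.44.0 and bcl2fastq 2.19, and the annotation release is not given in the sources used here. All sample columns were used (0 left out), and total counts were 27496645 to 35852785. kallisto splits reads that match several transcripts, which makes overlapping genes uncertain.

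Comparisons were fitted one by one, with only the libraries compared, in R 4.3.3 with edgeR 4.0.16: filterByExpr (minimum count 10), TMM scaling, quasi-likelihood test, Benjamini-Hochberg adjustment over all genes tested, threshold 0.05. Standard errors are the log2 fold change over the root of F, and 95% intervals follow from them. CPM used TMM factors of the 7 libraries, with 3 counts as floor; pooled-count ratios have exact binomial intervals, for counting error only. The fits were tested on simulated data. DESeq2 1.42.0, the tool of the study's methods, was an alternative, as were RLE scaling, no count filter, one fit of all 7 libraries, the mouse number as a block, the acinar list left out, and each library left out in turn.

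The members and gene lists were chosen with earlier results of these data known, so no test over a list was made. Named beside the members were, per list and comparison, up to 2 called genes with the largest rise and 2 with the largest fall at a mean of at least 1 CPM, or else the gene with the smallest adjusted p; for each member of at least 1 CPM the 2 genes most alike (log2 CPM, prior count 2); and Aldh1a3. Some genes that this rule names are not reported here. Cckbr, Cftr, Krt19, Muc1, Cldn10, Slc4a4, Spp1, Tph2, Bmyc, Fam241b, Pax4, Neurod2, Sox11, Tph1, Pou5f1, Nanog, Sox2, Tle1, Tle2 and Tle4 were added after their values were seen. Loci came from the GENCODE annotation of GRCm38 and shared 31-base words from its transcripts.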

Additional observations from a re-analysis of the deposited data

How the results depend on the processing

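Of the values of single members, 263 kept their direction and their side of the threshold under the alternatives, 13 lost a call, 12 gained one and 10 turned sign. The sign turned only in changes that were not called: Cd81 in db/db against db/+ (-0.016 to 0.33 with 1 library left out, below 0 without db/db mouse 2 or db/+ mouse 3), in KO_db/db against db/+ (-0.093 to 0.25, below 0 without KO_db/db mouse 2 or db/+ mouse 1 or 3) and in KO_db/db against db/db (-0.20 to 0.0094, above 0 without db/db mouse 2). In that last comparison so did Sox4 (-0.21 to 0.85, below 0 without KO_db/db or db/db mouse 1) and Mycl (-0.74 to 1.87, below 0 without db/db mouse 1). With 1 library left out, members called ran from 4 to 6 in db/db against db/+, from 2 to 4 in KO_db/db against db/+ and from 0 to 1 in KO_db/db against db/db, and genes called from 3331 to 4394, from 3060 to 4725 and from 0 to 225. A group left with 1 library was assumed to vary like the other group. KO_db/db against db/db depended most on the fit: 43 genes and 0 members as reported, 1396 and 3 with DESeq2, 1570 and 3 with no filter on low counts, and 818 and 3 in one fit of all 7 libraries; the cause was not tested. Deviations of same-numbered libraries from their group means correlated at -0.102 to 0.0759. In a group of 2 libraries these deviations mirror each other, so the values cannot show whether the mouse numbers pair the samples. With the replicate block, 4516, 3786 and 22 genes and 6, 3 and 0 members were called in the 3 comparisons; Mycl was then at 2.23 (edgeR adjusted p = 0.0998) and 2.62 (edgeR adjusted p = 0.0509) against db/+ in db/db and KO_db/db, Sox9 at 4.61 (edgeR adjusted p = 0.0484) and Cd81 at -0.072 in KO_db/db against db/+. Leaving the acinar list out moved no member's call. That setting drops the rows of the acinar genes only, so it cannot show the part of exocrine RNA in a member's own counts. Median log2 fold changes over all genes grouped into 10 classes by transcript GC content or length ran from -0.32 to 0.57 over the 3 comparisons. Depth limits Sox9, Mycl, Gast, Cck, Myc and Fev in libraries where they had under 20 counts.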
